A study of Gallus gallus with 24 samples.

Results

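Of 24 chicken interdigit libraries, 13, called marker-high here, were compared by incubation time. They were selected on the level of 1 gene, ENSGALG00010011988, and include every library in which it reached 50 CPM (counts per 1000000 reads) or more. The tissue is interdigital region 3, the mesenchyme between neighbouring digits of the hindlimb, from Gallus gallus embryos at stages HH30 to HH31; the labels name no agent, allele or pooling. Incubation lasted 7 days plus 4, 6, 8 or 11 hours. There were 3 marker-high libraries at each of 4 h, 6 h and 8 h, and 4 at 11 h, so that 6 early libraries (4 h and 6 h) stood against 7 late ones (8 h and 11 h). Nothing in the labels ties libraries to separate embryos, and p-values therefore reflect the spread among these samples.

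Cells between the digits die during this window in embryos with free toes. Bone morphogenetic proteins (BMPs), secreted ligands of the TGF-beta family, are known to promote this death, and the study's title links BMP signalling to the making and clearing of reactive oxygen species. Birds determine sex by Z and W chromosomes, with the W carried by females, and genes of the W are read in females alone, which is why a gene present in some embryos and nearly absent in others can be a candidate for a marker of sex. The deposited table names genes by Ensembl identifier and the reference table at hand pairs none of them with a name or a chromosome. Whether the marker-high libraries are female, whether they hold the expected tissue, and how BMP, oxygen-radical and cell-death genes behaved could therefore not be read from them. The genes described below are anonymous, and no sequence is shown for them.

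ENSGALG00010011988 left a wide empty interval between the 2 kinds of library. The lowest marker-high library stood at 533.5 CPM (6 h, replicate 6) and the highest marker-low library at 9.42 CPM (4 h, replicate 2), so that any cut between these values would keep the same 13 libraries. Across the marker-high libraries the level ran from 533.5 to 776.6 CPM at 6 h, 570.3 to 671.7 CPM at 8 h and 653.8 to 762.9 CPM at 11 h, and it was 811.3, 834.5 and 1024.4 CPM at 4 h. These values chose the libraries and are given as a description. A further description concerns the 28 genes, ENSGALG00010011988 included, that were picked for having their lowest marker-high library at least 1.5 log2 units above their highest marker-low one. Within the marker-high libraries their late-minus-early differences ran from -0.23 to 0.33 on the log2 scale with a median of -0.01.

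**Figure D1:**
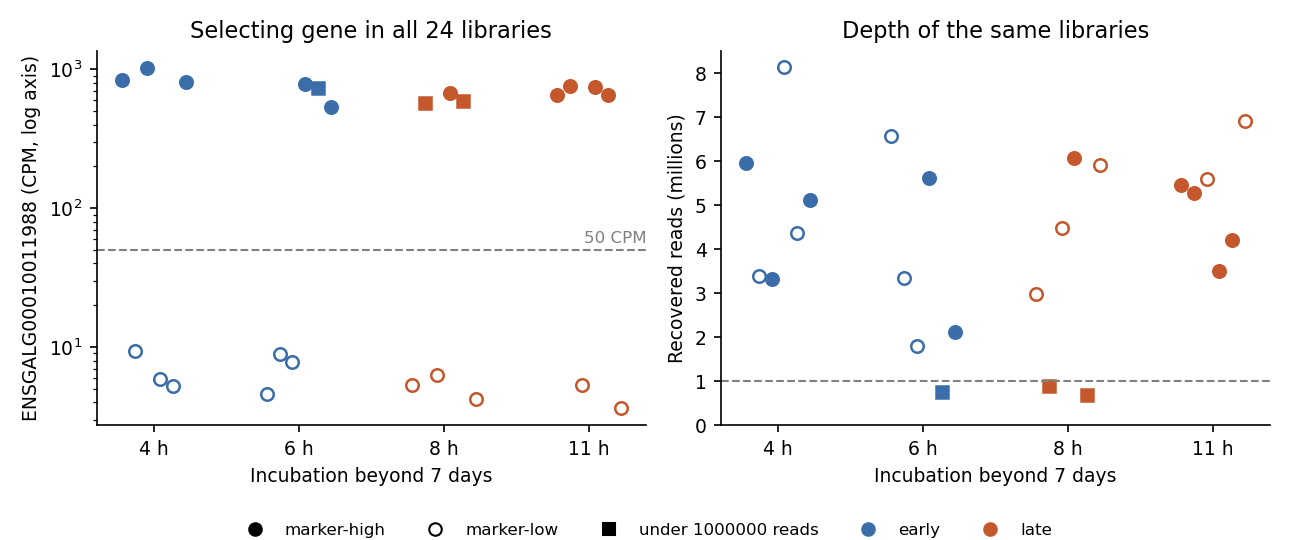
Level of the selecting gene (CPM, log axis) and depth (recovered reads in units of 1000000) of all 24 libraries by incubation time. Filled symbols are marker-high, open ones marker-low, squares are libraries under 1000000 reads, blue is early and orange late. The 13 marker-high libraries lie at 533.5 CPM or more and the others at 9.42 CPM or less, and all 3 squares are marker-high.

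Depth was uneven within the marker-high libraries but not tilted toward either phase. Early libraries held 747982 to 5961541 reads and late ones 690847 to 6060955 (two-sided exact permutation test of the means, p = 0.95). Genes with at least 1 read averaged 16392 ± 1785 early (SD, n = 6) and 16159 ± 2431 late (SD, n = 7), with exact permutation p = 0.84. All 3 libraries of the series under 1000000 reads were marker-high. At 6 h this was replicate 5, with 747982 reads. At 8 h replicate 2 held 894326 reads, and replicate 5 held 690847.

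Those 3 libraries stood apart from the other 10. In a principal component analysis of the 7209 genes averaging 10 CPM or more, the first component (22.44% of the variance) placed replicate 5 at 6 h at -51.4 and replicate 2 at 8 h at -52.6. On the second (19.68%) replicate 5 at 8 h scored -73.5, and the third (16.95%) separated the first pair from each other. The 10 deeper libraries scored 4.37 to 18.2 on the first component. Scores on the first component did not separate the phases, with a difference in means of -0.12 (exact permutation test, p = 0.99). Its extreme scores belong to an early and a late shallow library, which offset each other, so the comparison says little about time. The differences were -14.1 on the second component and 16.1 on the third (exact permutation tests, p = 0.16 and 0.18). The extreme scores on those components also belong to shallow libraries. The median SD of a gene within phases was 0.47 log2 units over 13 libraries and 0.35 without the 3 shallow ones.

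**Figure D2:**
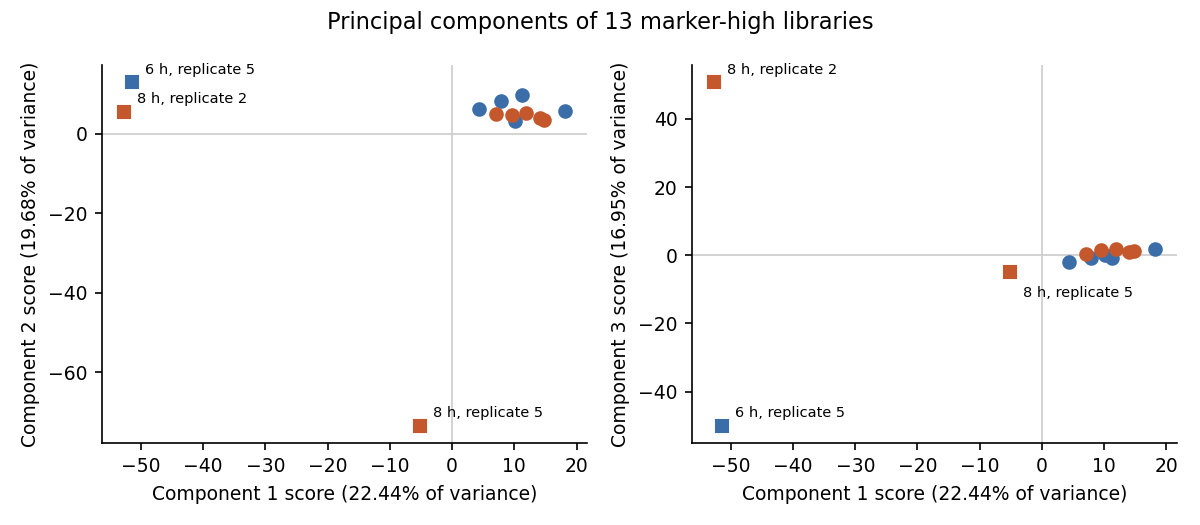
Scores of the 13 marker-high libraries on the first component against the second (left) and the third (right), with the share of variance on each axis. Blue is early, orange late, squares are the labelled libraries under 1000000 reads. The 10 deeper libraries of both phases form 1 group near 4.37 to 18.2 on the first component.

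Late against early is the question the incubation times put, here within libraries of 1 marker level. No gene differed at an adjusted p under 0.05 (0% of 11401 tested, limma on the log2 of scaled CPM plus 1, Benjamini-Hochberg), and limma-voom on the recovered reads also called 0. With weights for the quality of each library 8 genes passed (6 higher late, 2 lower), and with such weights but without the 3 shallow libraries, a choice made after seeing the data, 13 did (11 higher, 2 lower). Unadjusted p-values under 0.05 were found for 647 genes, 348 higher late and 299 lower late, which is 5.67% of those tested where evenly spread p-values would give 5%. Differences were small for most genes. Among the 7209 genes with at least 10 CPM the median difference was -0.02 and the 5th and 95th percentiles were -0.54 and 0.55 log2 units. Every late library lay above every early one in 6 of these genes (0.0832%), and below in 3 (0.0416%). For a single gene, random labels would give each of these outcomes with a probability of 0.00058. Some of the 7209 genes would thus show them without any change.

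Among genes of at least 10 CPM, the data bound most differences between the late and early means to less than 2-fold. They do not bound the change from 4 h to 11 h, which can be larger. For 5188 of the 7209 genes (71.97%) the 95% interval of the late-minus-early difference excluded changes of 2-fold or more either way, and for 1996 (27.69%) changes of 1.5-fold or more. Without the 3 shallow libraries the numbers were 5998 and 2706. Each interval holds for its own gene, and none is given for genes under 10 CPM.

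**Figure D3:**
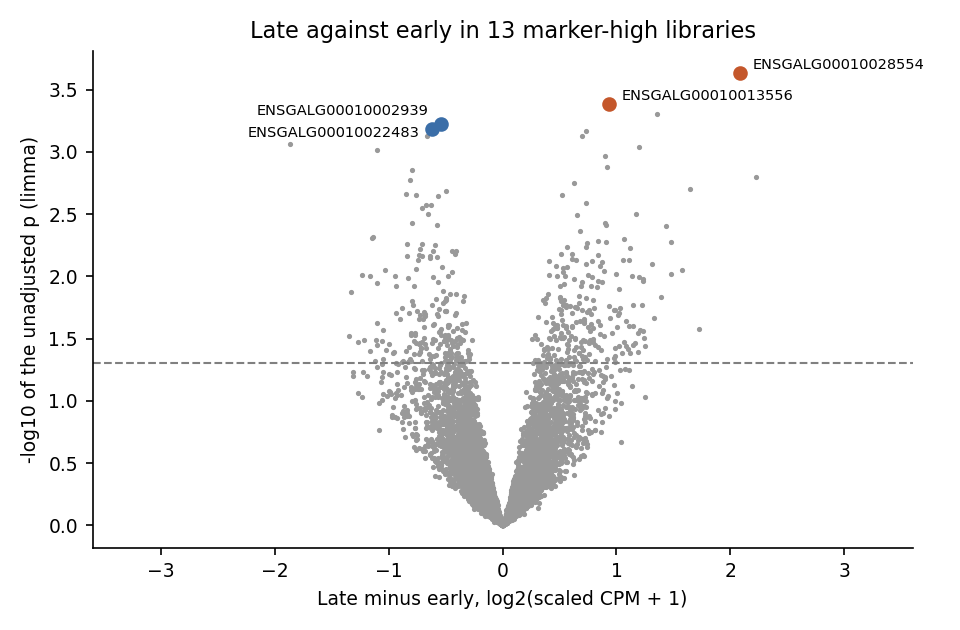
Difference between late and early marker-high libraries (log2 of scaled CPM plus 1) against -log10 of the unadjusted p (limma), for the 7209 genes of at least 10 CPM. Coloured points are the 4 identifiers described in the text, and the dashed line marks an unadjusted p of 0.05. None of the plotted genes passed an adjusted p of 0.05.

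The 4 identifiers described are those with the smallest p among genes of at least 10 CPM, a pair in each direction. None passed the threshold (adjusted p = 0.86 for each, limma), and the size of their differences is biased upward by that choice. The exact permutation p-values given for them restate the choice and are not corrected for it. Levels are CPM divided by the scaling factor of the library. Folds come from the difference in mean log2 of these levels plus 1, so they need not equal the ratio of the mean levels.

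ENSGALG00010028554 had higher values late, with 1 early library as an exception. It stood at 17.1, 18.3 and 18.8 CPM at 4 h and at 4.93, 12.05 and 120.75 CPM at 6 h. At 8 h it stood at 44.3, 57.7 and 72.1 CPM, and at 11 h at 53.4, 127.7, 152.7 and 155.9 CPM. All 7 late libraries lay above 5 of the 6 early ones, while replicate 6 at 6 h, at 120.75 CPM, was exceeded by 3 late libraries alone. The late-minus-early difference was 2.09 ± 0.47 log2 units (SE), or 4.25-fold (exact permutation p = 0.00641). Mean levels were closer, at 32.0 CPM early and 94.8 CPM late. Without replicate 6 at 6 h the difference was 2.61 log2 units, with an adjusted p of 0.0053 (limma), and this was then the only gene called. That omission takes out the value that ran against the difference, so the lower p adds no support. Leaving out any other single library gave adjusted p-values of 0.58 to 0.96 (limma). Without the 3 shallow libraries the difference was 2.25 (adjusted p = 0.29, limma). The gene was also among those called with library weights. The value of replicate 6 at 6 h rests on 244 reads. An earlier analysis of all 24 libraries had already singled out this gene, which therefore gives no independent support here.

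Of the 4 identifiers, ENSGALG00010013556 alone had early and late groups that did not overlap. It is 1 of the 6 genes counted above with every late library higher, an outcome that random labels also give. Its levels were 41.8, 49.2 and 56.9 CPM at 4 h and 19.7, 32.8 and 45.0 CPM at 6 h. They were 75.7, 87.6 and 95.3 CPM at 8 h and 57.7, 58.1, 69.1 and 92.6 CPM at 11 h. All 7 late libraries lay above all 6 early ones, by a margin of 57.7 against 56.9 CPM at the boundary, and the highest mean was that of 8 h (86.2 ± 9.89 CPM, SD, n = 3). The difference was 0.93 ± 0.22 log2 units (SE), or 1.91-fold, with an exact permutation p of 0.00058, the smallest that 6 against 7 libraries can give. The lowest value, 19.7 CPM, rests on 18 reads in the shallow replicate 5 at 6 h. Without that library the difference was 0.75 log2 units (adjusted p = 0.85, limma). Without all 3 shallow libraries it was 0.70 (adjusted p = 0.39, limma).

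ENSGALG00010002939, an abundant transcript, had lower values late. It stood at 733.2, 763.4 and 774.1 CPM at 4 h and at 440.9, 648.8 and 721.8 CPM at 6 h. The levels were 402.5, 434.8 and 496.6 CPM at 8 h and 418.1, 465.2, 474.9 and 526.3 CPM at 11 h. Again replicate 6 at 6 h was the exception, lying inside the late range while the other 5 early libraries lay above all 7 late ones. The difference was -0.55 ± 0.14 log2 units (SE, exact permutation p = 0.00466), and early levels were 1.46-fold higher. Without the 3 shallow libraries it was -0.47 (adjusted p = 0.45, limma).

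ENSGALG00010022483 was likewise lower late. It measured 118.1, 166.9 and 173.7 CPM at 4 h, 147.5, 164.3 and 175.7 CPM at 6 h, 80.7, 88.5 and 127.0 CPM at 8 h and 87.7, 96.8, 113.4 and 127.3 CPM at 11 h. The groups overlapped through replicate 1 at 4 h, the lowest early library, which 2 late libraries exceeded. The difference was -0.62 ± 0.15 log2 units (SE, exact permutation p = 0.0035), or 1.53-fold higher early. Without the 3 shallow libraries it was -0.50 (adjusted p = 0.46, limma).

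**Figure D4:**
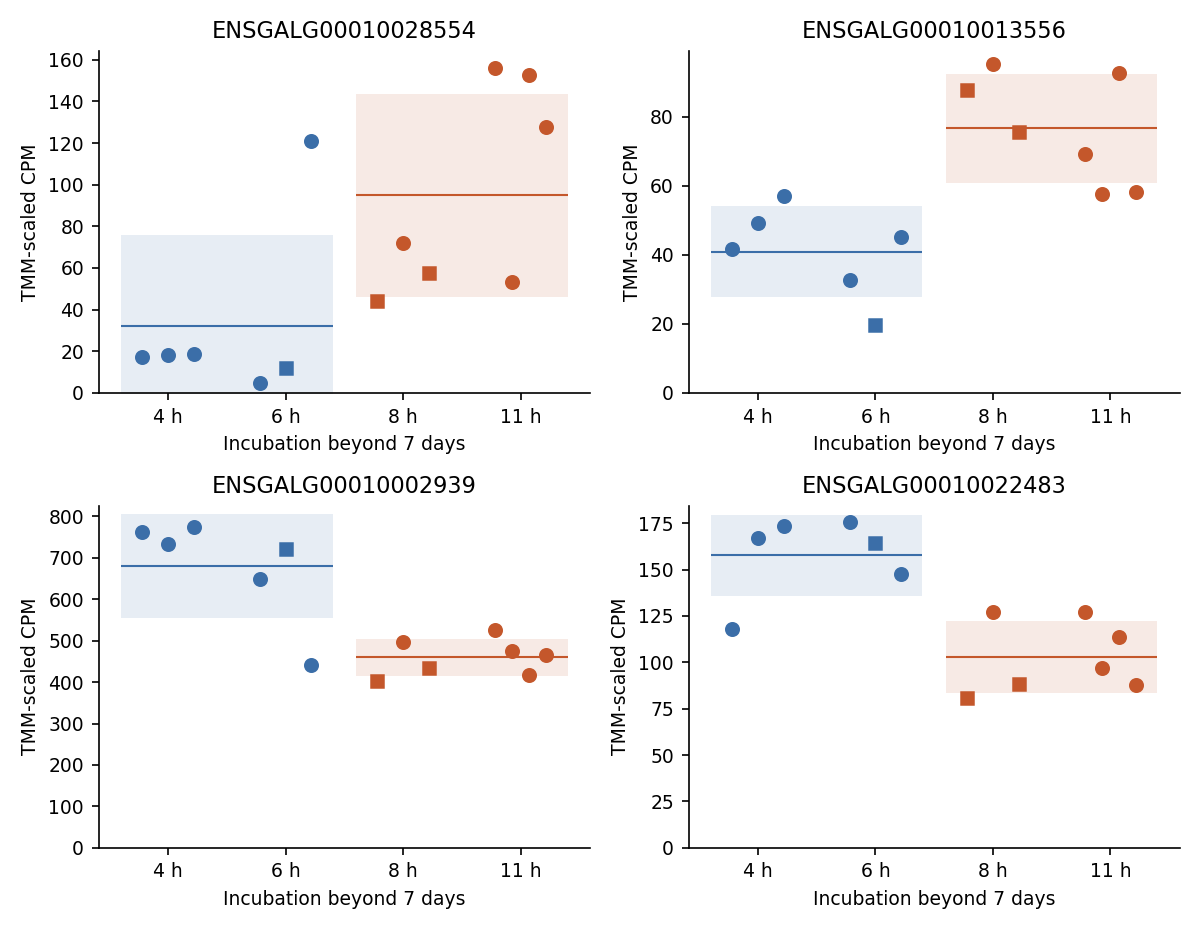
Scaled CPM of the 4 identifiers in each marker-high library by incubation time (early blue, n = 6; late orange, n = 7; squares are libraries under 1000000 reads). Lines are phase means and bands 1 SD, cut off at 0. Late libraries are apart from all early ones for ENSGALG00010013556 and overlap for the other 3, through replicate 6 at 6 h in both left panels.

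The library numbers in the labels divide the marker-high libraries so that each phase is represented on both sides, a division examined as a possible batch although the labels do not call it one. The lower numbers cover all 3 libraries at 4 h and all 4 at 11 h, and the higher ones all 3 at 6 h and all 3 at 8 h. Late against early is thus made of 11 h against 4 h in the lower numbers and 8 h against 6 h in the higher ones, and number cannot be told apart from the pair of times compared. ENSGALG00010028554 differed by 2.58 ± 0.30 in the lower numbers (SE, adjusted p = 0.00029, limma) and 1.46 ± 0.72 in the higher (SE, adjusted p = 1.00, limma). ENSGALG00010013556 went the other way in size, with 0.47 ± 0.22 in the lower numbers and 1.45 ± 0.37 in the higher (SE). ENSGALG00010002939 differed by -0.69 ± 0.13 and -0.42 ± 0.25, and ENSGALG00010022483 by -0.51 ± 0.19 and -0.74 ± 0.28 (SE). All 4 thus kept their direction in each set of numbers. They were chosen on the pooled libraries, which these sets together make up, so the shared direction is no further support.

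The comparison of 11 h with 4 h, within the 7 lower-numbered marker-high libraries, gave calls where the pooled comparison gave none. In all, 10 genes were higher at 11 h at an adjusted p under 0.05 and 0 were lower (0.0877% of 11401, limma), ENSGALG00010028554 among them, with differences of 1.10 to 2.58 log2 units. Without adjustment, 921 genes (8.08%) had p under 0.05. Without replicate 3 at 4 h there were 7 calls, 4 higher and 3 lower. The count fell to 3 without replicate 1 at 4 h or without replicate 1 at 11 h, and to 4 without replicate 4 or replicate 5 at 11 h. Among the 6 higher-numbered libraries, which include the 3 shallow ones, 8 h against 6 h called 0 genes, and 427 (3.75%) had an unadjusted p under 0.05. The median SD of a gene within phases was 0.33 log2 units in the lower numbers and 0.53 in the higher.

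The 10 genes were then read in libraries outside the fit that called them. The expression minimum had used all marker-high libraries. ENSGALG00010028554, 1 of the 10, had also been singled out earlier in all 24 libraries, so it is not independent here. The counts below include it. Its differences were 1.46, 1.56 and 1.00 log2 units, in the order in which the comparisons follow. In both marker-low comparisons it was the highest of the 10. From 6 h to 8 h in the higher-numbered marker-high libraries, 8 of the 10 were higher and 2 lower, with a median difference of 0.57 log2 units and a range of -1.01 to 2.10, where 46.6% of all 11401 genes were higher and the median was -0.04. Of the 10, 1 was higher at an unadjusted p under 0.05 there, against 1.67% of all genes. Between 4 h (n = 3) and 11 h (n = 2) in the lower-numbered marker-low libraries, 7 of the 10 were higher and 3 lower, with a median of 0.49 and a range of -0.61 to 1.56, where 53.5% of all genes were higher and the median was 0.03. Of the 10, 4 were higher at an unadjusted p under 0.05 there, against 2.68% of all genes. Over all marker-low libraries, which include those just named, late (n = 5) against early (n = 6) had 8 of the 10 higher and 2 lower. Their median was 0.60 and their range -0.97 to 1.00, where 54.4% of all genes were higher and the median was 0.03. At an unadjusted p under 0.05, 6 were higher and 1 lower there, against 533 (4.68%) and 409 of all 11401 genes. The shares over all genes were not matched for expression level. The 10 did not move as 1 block. Of those with differences above 2 log2 units in the choosing libraries, 2 were lower from 6 h to 8 h in the higher-numbered marker-high libraries. The same 2, ENSGALG00010007287 (-0.61) and ENSGALG00010001162 (-0.38), were lower from 4 h to 11 h in the lower-numbered marker-low libraries. ENSGALG00010007287 had the smallest adjusted p in the choosing libraries (3.594e-05, limma). Also above 2 units there, ENSGALG00010012847 was lower in those marker-low libraries (-0.20) and ENSGALG00010028554 higher (1.56).

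**Figure D5:**
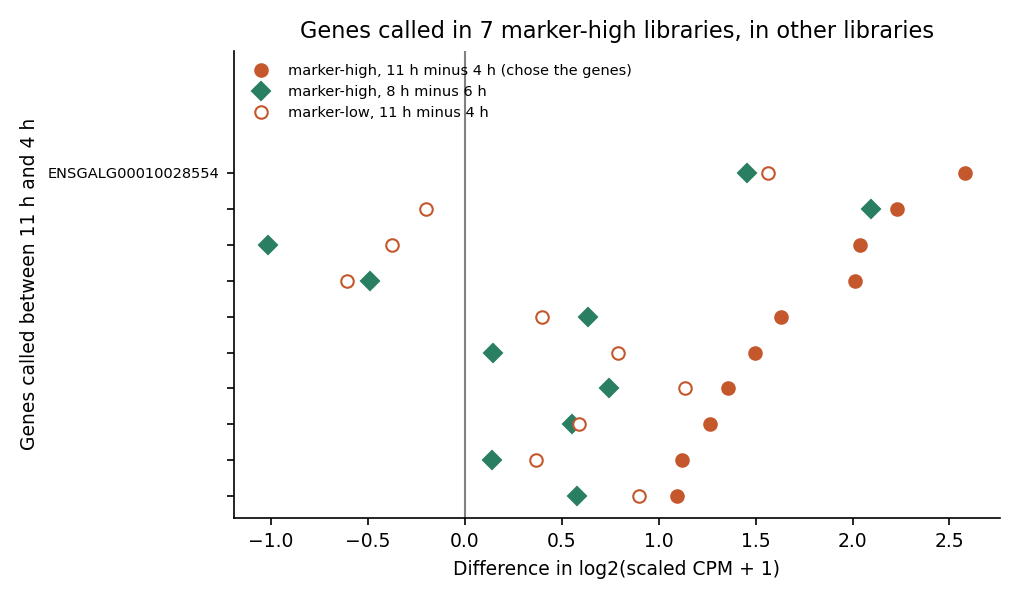
Differences in log2 of scaled CPM plus 1 for the 10 genes called between 11 h and 4 h in 7 marker-high libraries, 1 gene per row. Filled circles are the libraries that chose the genes, diamonds are 8 h minus 6 h in 6 other marker-high libraries, open circles are 11 h minus 4 h in 5 marker-low libraries. Diamonds lie above 0 for 8 genes and open circles for 7.

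Whether the marker-high libraries changed with time differently from the 11 marker-low ones (6 early, 5 late) was tested by an interaction term over all 24 libraries. No gene passed (0% of 13783, limma), limma-voom also called 0, and 603 (4.37%) had an unadjusted p under 0.05. In the marker-low libraries ENSGALG00010028554 ran from 19.0 to 78.3 CPM early (median 42.8) and from 66.6 to 104.9 CPM late (median 74.7), a difference of 1.00 ± 0.26 log2 units (SE; exact permutation p = 0.0152, adjusted p = 0.36 over all genes by limma). The other 3 had differences of the same sign as in the marker-high libraries, namely 0.33 ± 0.21 for ENSGALG00010013556, -0.19 ± 0.13 for ENSGALG00010002939 and -0.10 ± 0.20 for ENSGALG00010022483 (SE; exact permutation p = 0.22, 0.25 and 0.68). The difference between marker levels was 1.08 ± 0.61 log2 units for ENSGALG00010028554, 0.61 ± 0.32 for ENSGALG00010013556, -0.35 ± 0.19 for ENSGALG00010002939 and -0.51 ± 0.26 for ENSGALG00010022483 (SE, adjusted p = 0.99 for each, limma). None of the 4 is therefore shown to be particular to the marker-high libraries. Their choice on the marker-high libraries also biases the size of these differences between marker levels upward. In these tissue pieces, fewer cells of a kind and less RNA per cell cannot be told apart.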

How the data were processed

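Total RNA was made into Lasy-Seq libraries, per the labels' protocols. Salmon, BWA 0.7.17-r1188 and fastp 0.21.0 appear in the submitters' processing notes. What role each had, and which annotation and genome build they used, is not given in the sources used here. Values were deposited by the authors on a natural log scale: exp(value) - 1 summed to 1000000 per library, so they are ln(CPM + 1). Whole reads were recovered from the steps of the CPM (99.9995% of values whole within 0.01 read) and served depth, scaling and limma-voom.

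Scaling used the trimmed mean of M values (TMM) over all 24 libraries, by which CPM were divided. Genes reaching 2.37 CPM (10 reads at median depth) in at least 6 marker-high libraries, with at least 15 reads in all, were tested. Log2(scaled CPM + 1) was tested with limma 3.58.1 in R 4.3.3 with an intensity trend, a pseudocount of 1 and no covariate; this scale understates changes of weakly expressed genes. The interaction fit used the same minimum over all libraries (2.26 CPM). Single values were compared by two-sided exact permutation tests. The 4 identifiers described were the 2 with the smallest p in each direction among genes averaging 10 CPM or more.

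The members, lists and tests were chosen with earlier results of these data known. Of the identifiers, 0 matched the 25635 genes of the reference table, so gene lists fixed by symbol were not evaluated. Alternatives to scaling, filter, pseudocount, test, time coding and libraries are given in the closing section.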

Additional observations from a re-analysis of the deposited data

Results flagged for a closer look

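Among 16 sets of 6 or 7 marker-high libraries examined for 1 value far from the rest, 3 held such a value. The sets covered depth, genes detected, the selecting gene, the first component and the 4 identifiers, early and late. A chance rate of about 1 in 20 is no valid reference for this count. The sets share libraries, the first component was fitted to the same libraries, and the 4 identifiers were chosen by p. On the first component, replicate 5 at 6 h scored -51.4 among the early libraries and replicate 2 at 8 h scored -52.6 among the late ones. Both hold fewer than 1000000 reads; what part depth has in the scores was not tested. ENSGALG00010028554 stood at 120.75 scaled CPM in replicate 6 at 6 h, against 4.93 to 18.8 in the other early libraries. That library holds 2114389 reads.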

How the results depend on the processing

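The 0 calls of late against early in marker-high libraries were obtained under 25 of 30 alternatives. With array weights 8 genes passed (limma), and within the lower library numbers 10. With array weights but without the 3 libraries under 1000000 reads, an alternative chosen after seeing the data, 13 passed. Of these 13, 7 were among the 8 and 8 among the 10, and 5 of the 8 were among the 10. These fits share libraries, so the overlap is no further support. Leaving out each library in turn gave 0 to 1 calls. With the replicate number as a block, 1 gene passed, ENSGALG00010028554. The labels do not say whether equal numbers mark paired libraries. The deviations of 0 of 5 same-numbered early and late pairs correlated above 0.1, and 2 of 8 libraries correlated best with their own number. With so few pairs, some of which include the shallow replicate 5 at 6 h, these values cannot settle it. The 647 genes at an unadjusted p under 0.05 (5.67% of 11401) became 1052 with no filter (4.15% of 25338). They became 431 with a mean of at least 10 CPM (5.98% of 7209) and 1112 with all 24 libraries in the fit (8.07% of 13783). Of the same 11401 genes, 427 (3.75%) had such a p in the higher library numbers and 342 (3%) for a slope per hour. The interaction kept 0 calls under its 11 alternatives. Its 603 unadjusted (4.37% of 13783) became 1054 with no filter (3.88% of 27183) and 299 at 10 CPM (4.15% of 7209). For 11 h against 4 h in the lower numbers, leaving out each library gave 3 to 10 calls, of which up to 3 were lower at 11 h, and other settings 9 to 13, of which up to 2 were lower (alternatives chosen after seeing the data). ENSGALG00010028554 passed in 5 of 25 alternatives (1.46 to 3.36 log2 units, adjusted p 0.00029 to 1.00, limma) and the other 3 in 0 of 25, with their sign kept. The difference on the first component, -0.12, was 1.08 with all tested genes and 5.00 without the shallow libraries. Each set of genes or libraries has a first component of its own. These values therefore do not follow 1 quantity, and none of them is read as a separation of the phases. Apart from fewer or more genes or libraries, the causes were not tested. Depth limits what the 3 shallow libraries can show.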
